A study of Mus musculus with 11 samples.

Results

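The elastic fibre genes described here are 10 genes taken by symbol: Eln, Fbn1, Mfap2, Mfap4, Mfap5, Fbln1, Fbln2, Efemp1, Emilin1 and Emilin2. They are 10 of the 12430 genes in the deposited count table, and all 10 were among the 10067 with enough counts to be tested. RNA came from fibroblasts of the mouse thymus, sorted from young wild-type males, and was read from its 3' ends by MARS-seq, a method that tags and counts polyadenylated transcripts. The mice of 1 group were untreated (4 libraries), and those of the others had received an intraperitoneal injection of dexamethasone, a synthetic glucocorticoid, at 200 ug per 10 g body weight, 18 h (3 libraries) or 4 d (4 libraries) before they were killed. The labels give no vehicle injection for the untreated mice, so the injection and the drug cannot be told apart. They also do not say whether each library is a separate animal, so p-values measure the spread between libraries, which may be in part technical.

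Elastic fibres give stretch to skin, lung, vessel walls and organ capsules. Fibroblasts secrete tropoelastin, the product of Eln, onto a scaffold of microfibrils built mainly of fibrillin, and enzymes of the lysyl oxidase family crosslink it there into a lasting polymer. Small glycoproteins bind the microfibrils, fibulins and emilins sit where elastin and microfibrils meet, and microfibrils also hold latent TGF-beta in the matrix. In the thymus, fibroblasts of this kind form the capsule, the septa and the sheath of vessels.

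Of the 10 genes, 3 fell within 18 h of dexamethasone and 0 rose, where 4.69% of all genes tested fell and 7.85% rose. The elastin gene Eln and the microfibril-associated genes Mfap2 and Mfap4 were lower by 2.43-fold to 3.59-fold, while Fbn1, the gene of the fibrillin scaffold itself, stood at 0.02 ± 0.32 on the log2 scale and was not called. By 4 d, Eln, Mfap4 and Fbln2 were higher than at 18 h, and 0 of the 10 genes differed from untreated past the threshold in either direction. Of all genes tested, 1.7% were higher and 3.81% lower at 4 d than at 18 h, and 2.48% were higher and 0.824% lower at 4 d than untreated. The 10 genes were chosen with earlier results of these data known, so these shares are a background and not a test. Genes were tested with edgeR's quasi-likelihood test, and a call needed an adjusted p (Benjamini-Hochberg, 10067 genes) under 0.05. Differences are log2 values with their standard error (SE). Levels are CPM, which are counts after scaling all libraries to the same size, and are given with the SD. As only 3' ends were counted, a CPM is not a level per length, and it is compared here between groups and not between genes.

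RefSeq promoter windows, which run from 250 bases before to 50 bases after a transcription start on GRCm38.p6, were on hand for 7 of the 10 genes, with 2 windows each for Mfap2, Fbln1 and Emilin2. None was given for Eln, Mfap4 and Mfap5. The 250 bases before the start are shown for 1 gene that fell at 18 h (Mfap2, the window nearest the gene's annotated start), 1 that was higher at 4 d than at 18 h (Fbln2), and the fibrillin gene, which was not called in any comparison (Fbn1). Capitals mark matches on either strand to the motifs searched. The GC box was searched for as the letters GGGCGG, which bind the general activator Sp1. The hexamer recognised by 1 monomer of the glucocorticoid receptor was searched for as AGAACA, and the SMAD element, bound by the mediators of TGF-beta signalling, as CAGAC. The AP-1 motif was read as the letters TGAGTCA, while for the TATA box the letters were TATAAA. The windows lie at chr4:141010174-141010423 on the plus strand, chr6:91212514-91212763 on the plus strand and chr2:125506439-125506688 on the minus strand.
Mfap2: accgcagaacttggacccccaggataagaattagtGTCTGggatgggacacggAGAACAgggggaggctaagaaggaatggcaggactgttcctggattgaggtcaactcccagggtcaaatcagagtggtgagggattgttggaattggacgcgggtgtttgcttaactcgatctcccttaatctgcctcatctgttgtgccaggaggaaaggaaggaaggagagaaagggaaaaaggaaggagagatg
Fbln2: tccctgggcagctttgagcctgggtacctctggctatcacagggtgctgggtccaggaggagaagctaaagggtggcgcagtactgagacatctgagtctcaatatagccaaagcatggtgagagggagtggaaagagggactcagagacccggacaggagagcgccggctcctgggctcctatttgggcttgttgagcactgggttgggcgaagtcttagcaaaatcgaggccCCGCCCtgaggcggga
Fbn1: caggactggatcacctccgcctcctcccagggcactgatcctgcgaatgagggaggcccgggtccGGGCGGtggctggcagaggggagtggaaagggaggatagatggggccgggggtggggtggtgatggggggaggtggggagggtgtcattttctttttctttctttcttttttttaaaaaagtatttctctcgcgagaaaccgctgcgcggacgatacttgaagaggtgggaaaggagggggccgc
In the Mfap2 window shown, the SMAD element and the receptor hexamer, both in capitals, start 215 and 197 bases before the start. The other Mfap2 window, with its start 263 bases from the annotated one, held 2 GC boxes, 0 receptor hexamers and 0 SMAD elements. For the windows shown, the start lay 6 (Mfap2), 309 (Fbln2) and 1555 (Fbn1) bases from the annotated start of the gene. Over all the windows of the 7 genes a GC box was found for 6 genes, a SMAD element for 5 and a receptor hexamer for 3 (Mfap2, Fbln1 and Emilin1), while AP-1 and TATA motifs were found for 0. Emilin1 holds a receptor hexamer and a SMAD element that share letters. Among all 32851 windows of the table, 35.7% held the GC box, 49.6% the SMAD element, 19% the receptor hexamer, 13.6% the TATA motif and 5.2% the AP-1 motif. These shares are per window, whereas a gene was counted if any of its windows matched. A gene with 2 windows had more room for a match, so the counts and shares are not like for like. These are matches of letters, and no binding was measured.

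Eln, the gene of tropoelastin (protein-coding, chromosome 5, 134702593 to 134747323, minus strand, GRCm38), had the narrowest spread between 18 h libraries, relative to its mean, of the 10 genes. Its level was 1283, 1700.0, 1292 and 1418 CPM in the untreated libraries, 590.1, 563 and 604 CPM at 18 h, and 1913, 2324, 1704 and 1271 CPM at 4 d. All 3 libraries of the 18 h group lay below all others, and the untreated and 4 d groups overlapped. The group means were 1423 ± 195 CPM (SD, n = 4), 585.5 ± 20.9 CPM (SD, n = 3) and 1803 ± 438 CPM (SD, n = 4). The fall at 18 h was -1.28 ± 0.24 on the log2 scale, 2.43-fold (adjusted p = 0.00364), and the 4 d level was above the 18 h level by 1.62 ± 0.24, 3.08-fold (adjusted p = 0.0012). Against untreated, Eln at 4 d stood at 0.34 ± 0.21 (adjusted p = 0.418). The 2 comparisons that involve the 18 h group share its 3 libraries, so the fall and the later rise are not independent of each other, here and for each gene below.

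**Figure D1:**
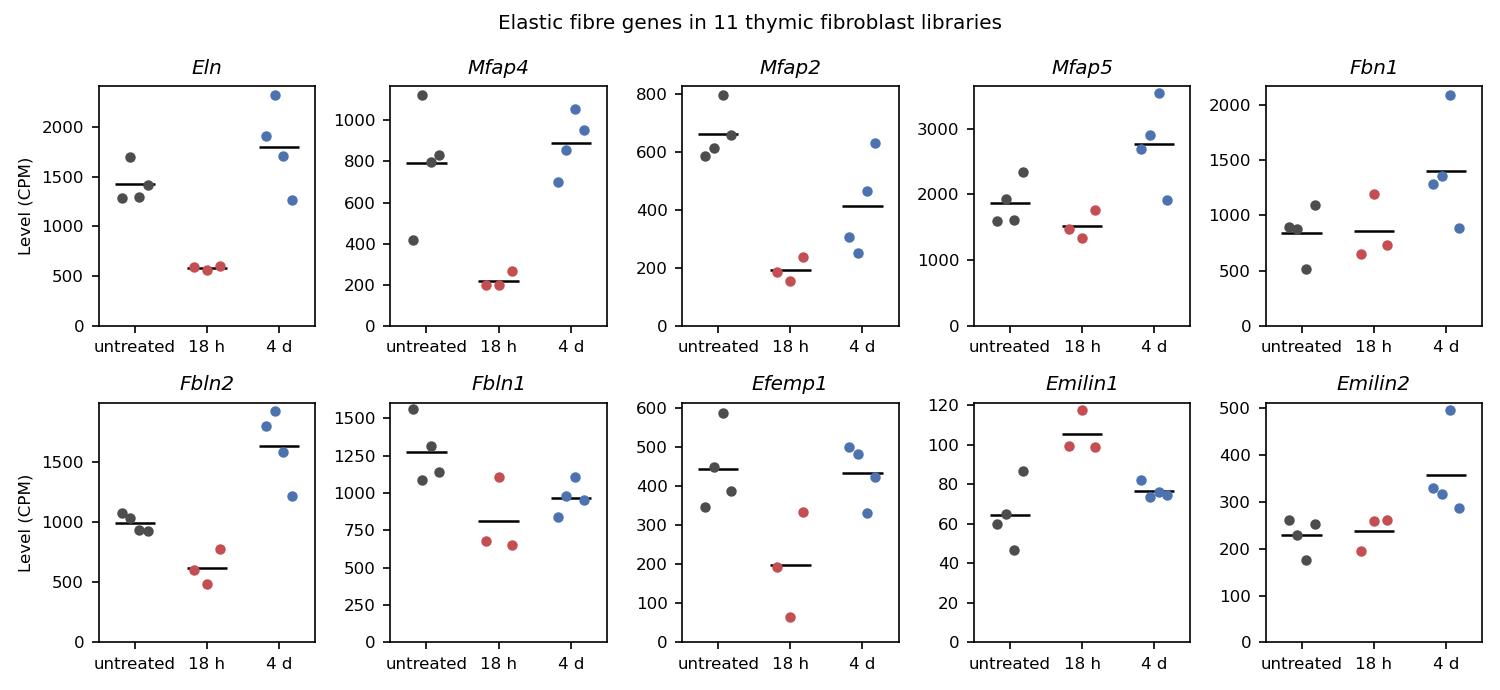
Levels of the 10 elastic fibre genes in CPM (vertical axes, each starting at 0) in 4 untreated libraries and in 3 and 4 libraries taken 18 h and 4 d after dexamethasone. Each point is a library and each line a group mean; at 18 h the points of Eln, Mfap4 and Mfap2 lie below all untreated points, and those of Emilin1 above them.

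Among the genes of the microfibril, Mfap4 changed most. It encodes a fibrinogen-domain glycoprotein that binds fibrillin and tropoelastin (chromosome 11, 61485431 to 61488900, plus strand), and its levels were 419.5, 1121, 799 and 833 CPM in untreated libraries, 198, 197 and 267 CPM at 18 h, and 698, 858, 1056 and 953 CPM at 4 d. Each 18 h library was below every library of both other groups, and the untreated libraries ran from 419.5 CPM in replicate 1 to 1121 CPM in replicate 2. Mfap4 fell by 1.84 ± 0.31 on the log2 scale at 18 h, 3.59-fold (adjusted p = 0.00195), was higher at 4 d than at 18 h by 2.01 ± 0.31, 4.03-fold (adjusted p = 0.00156), and at 4 d stood at 0.17 ± 0.27 against untreated (adjusted p = 0.794). The last 89 bases of the gene overlap Mapk7, which lies on the opposite strand, and the strand setting of the counting is not given in the sources used here. Mapk7 was at 21.3 to 36.7 CPM over the 11 libraries, with overlapping groups.

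Mfap2 encodes a small microfibril glycoprotein that also binds TGF-beta family ligands (chromosome 4, 141010418 to 141015984, plus strand). The untreated libraries were at 586, 615, 797 and 661 CPM, the 18 h libraries at 185.5, 154 and 238 CPM, and the 4 d libraries at 306, 253, 466 and 633 CPM. The 18 h group lay below all other libraries, and at 4 d only replicate 4 reached the untreated range. The fall at 18 h was -1.78 ± 0.31, 3.44-fold (adjusted p = 0.00259). The 4 d level stood at 1.10 ± 0.31 above 18 h (adjusted p = 0.0516) and at -0.69 ± 0.27 against untreated (adjusted p = 0.193), neither of them called. Both change sides of the threshold in some settings: without the 2 shallowest libraries, of which 4 d replicate 4 is 1, Mfap2 at 4 d was lower than untreated by 0.959 on the log2 scale (adjusted p = 0.0468), and without 4 d replicate 2 or 18 h replicate 3 it was higher at 4 d than at 18 h, by 1.275 (adjusted p = 0.0278) and 1.279 (adjusted p = 0.044). The rise between the times also passed with DESeq2's Wald test (adjusted p = 0.01) and with scaling by total counts only (0.0329). It passed as well with no filter (0.0449) and with a minimum count of 20 (0.0487).

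Mfap5, the close relative of Mfap2 (chromosome 6, 122505845 to 122529290, plus strand), was not called in any comparison. It was at 1591, 1931, 1605 and 2340.0 CPM in untreated libraries, 1468, 1329 and 1763 CPM at 18 h, and 2693, 2898, 3537 and 1908 CPM at 4 d. The 18 h and untreated groups overlapped, and every 4 d library lay above every 18 h library. Its log2 differences were -0.30 ± 0.25 at 18 h (adjusted p = 0.472), 0.56 ± 0.23 at 4 d (adjusted p = 0.203) and 0.86 ± 0.25 between the times (adjusted p = 0.0628). Without 4 d replicate 4, the last passed at 1.008 (adjusted p = 0.0333), and with DESeq2's Wald test at 0.851 (adjusted p = 0.00939).

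Fbn1 encodes fibrillin-1, the main microfibril protein of adult tissue and the gene altered in Marfan syndrome in humans (chromosome 2, 125300594 to 125507993, minus strand). Its levels were 896, 872, 519 and 1089 CPM in untreated libraries, 651, 1192 and 729.6 CPM at 18 h, and 1281, 1358, 2089 and 888 CPM at 4 d. No pair of groups was free of overlap, and 4 d replicate 3 was the highest library. The differences were 0.02 ± 0.32 at 18 h (adjusted p = 0.976), 0.74 ± 0.30 at 4 d (adjusted p = 0.208) and 0.71 ± 0.33 between the times (adjusted p = 0.227).

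The fibulins are glycoproteins that link tropoelastin, microfibrils and basement membranes, and Fbln2 was the 1 of the 3 measured here that was called. Fbln2 (chromosome 6, 91212455 to 91272540, plus strand) was at 1072, 1032, 928.5 and 920.4 CPM untreated, 599, 486 and 776 CPM at 18 h, and 1798, 1918, 1576 and 1212 CPM at 4 d. Its 3 groups did not overlap, with 18 h lowest and 4 d highest. It rose between 18 h and 4 d by 1.39 ± 0.24, 2.62-fold (adjusted p = 0.00348), while the differences from untreated, -0.67 ± 0.23 at 18 h (adjusted p = 0.075) and 0.72 ± 0.21 at 4 d (adjusted p = 0.0821), missed the threshold. DESeq2's Wald test, an alternative, called both, with adjusted p = 0.0255 and 0.0116. Without 18 h replicate 2, Fbln2 at 4 d against untreated passed at 0.722 (adjusted p = 0.0454). That library is in neither group of this comparison. It enters through the filter, the scaling, the estimate of spread and the p-value adjustment.

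Fbln1 (chromosome 15, 85205949 to 85286535, plus strand) was at 1559, 1090, 1313 and 1142 CPM untreated, 678, 1105 and 651 CPM at 18 h, and 839, 980.1, 1107 and 952 CPM at 4 d. At 18 h replicate 2 was within the untreated range and the other two were below it. The differences were -0.66 ± 0.24 at 18 h (adjusted p = 0.092), -0.40 ± 0.22 at 4 d (adjusted p = 0.357) and 0.26 ± 0.24 between the times (adjusted p = 0.561). Without 18 h replicate 2, Fbln1 fell at 18 h by 0.944 on the log2 scale (adjusted p = 0.0191). The fall also passed without the 2 shallowest libraries (adjusted p = 0.0199), with scaling by total counts only (0.0207) and with DESeq2's Wald test (0.0398).

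Efemp1 encodes fibulin-3 (chromosome 11, 28853204 to 28926743, plus strand), and its untreated levels were 347, 448.5, 589 and 389 CPM, against 193.5, 65.6 and 335 CPM at 18 h and 500.3, 483, 332 and 425 CPM at 4 d. All 18 h libraries were below all untreated ones, with replicate 3 close to the lowest of them and replicate 2 far below. The differences were -1.15 ± 0.40 at 18 h (adjusted p = 0.0734), -0.03 ± 0.36 at 4 d (adjusted p = 0.984) and 1.12 ± 0.40 between the times (adjusted p = 0.121). Leaving out 18 h replicate 3 gave -1.754 at 18 h (adjusted p = 0.015) and 1.728 between the times (adjusted p = 0.0206). The fall at 18 h also passed with DESeq2's Wald test (adjusted p = 0.0383), limma-voom (0.0444) and scaling by total counts only (0.0394).

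The emilins, which lie at the border of elastin and microfibrils, did not follow Eln. Emilin1, known in mice as a restraint on TGF-beta maturation (chromosome 5, 30913402 to 30921277, plus strand), was at 60.1, 65.0, 46.7 and 86.7 CPM untreated, 99.7, 118 and 99.2 CPM at 18 h, and 82.2, 73.7, 76.4 and 74.7 CPM at 4 d. The 18 h libraries were above all others. Its difference at 18 h was 0.70 ± 0.22 (adjusted p = 0.0542), just outside the threshold, and it passed with DESeq2's Wald test (adjusted p = 0.0199), limma-voom (adjusted p = 0.0457) and without untreated replicate 4, at 0.878 (adjusted p = 0.0307). At 4 d it stood at 0.25 ± 0.21 against untreated (adjusted p = 0.57) and at -0.45 ± 0.22 against 18 h (adjusted p = 0.257).

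Emilin2 (chromosome 17, 71252172 to 71311978, minus strand) was at 262, 229.6, 177 and 254 CPM untreated, 195, 260.0 and 262 CPM at 18 h, and 330.0, 318, 497 and 288 CPM at 4 d. Every 4 d library lay above every other library, with replicate 3 the highest. The differences were 0.05 ± 0.24 at 18 h (adjusted p = 0.913), 0.64 ± 0.23 at 4 d (adjusted p = 0.136) and 0.59 ± 0.25 between the times (adjusted p = 0.184), none of them called.

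**Figure D2:**
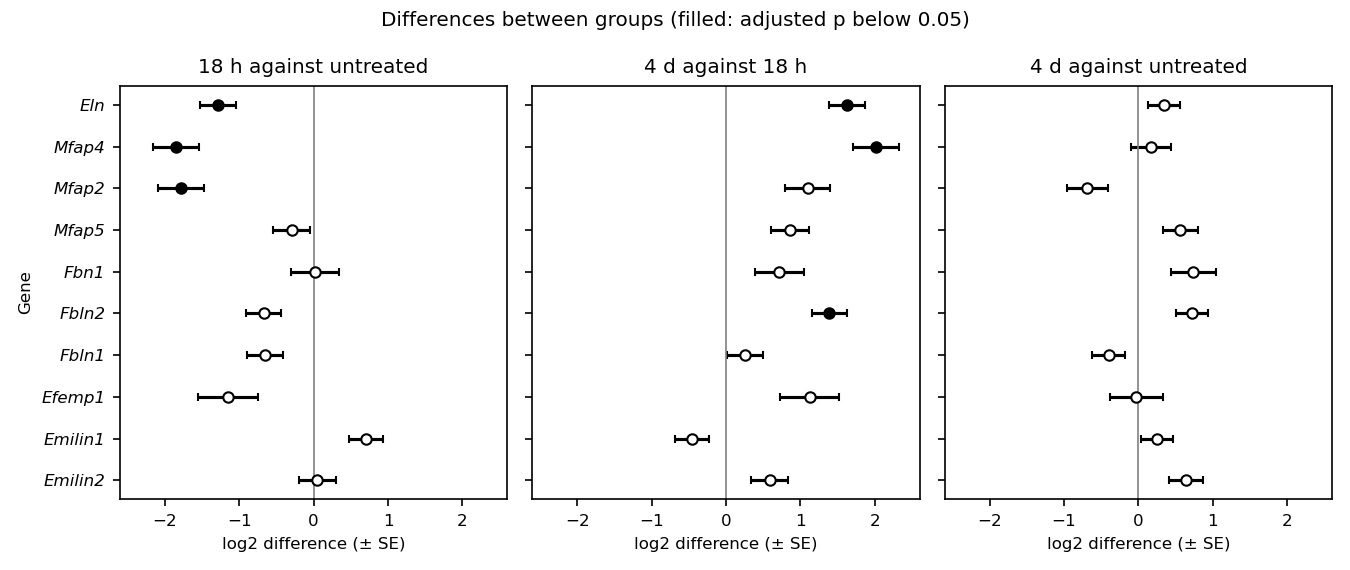
Log2 differences of the 10 genes (horizontal axes, bars ± SE) at 18 h against untreated, at 4 d against 18 h and at 4 d against untreated. Filled points passed an adjusted p of 0.05: Eln, Mfap4 and Mfap2 in the first panel, Eln, Mfap4 and Fbln2 in the second and 0 genes in the third.

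Read as a group, the 10 genes leaned down at 18 h and up between 18 h and 4 d. Because the list was chosen with earlier results of these data known, the shares below describe it and test nothing. At 18 h against untreated, 3 were called lower where 4.69% of all genes tested were, and 0 higher where 7.85% were; the median difference was -0.66 against -0.03 over all genes. All 18 h libraries lay below all untreated ones for 5 genes (Eln, Mfap2, Mfap4, Fbln2 and Efemp1), against 11.5% of all genes, and above them for 1 (Emilin1), against 12.2%. Between 18 h and 4 d, 3 were called higher, against 1.7% of all genes, and 0 lower, against 3.81%, with a median of 0.98 against -0.00. The 4 d libraries were all above the 18 h libraries for 6 genes (Eln, Mfap2, Mfap4, Mfap5, Fbln2 and Emilin2), where 9.52% of all genes were, and all below for Emilin1, where 10.5% were.

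At 4 d against untreated, 0 of the 10 were called lower, where 0.824% of all genes were, and 0 higher, where 2.48% were, in edgeR's quasi-likelihood test, with 5 at an unadjusted p below 0.05, as 18.3% of all genes were. DESeq2's Wald test called 1, Fbln2, and limma-voom 0. The median was 0.29 against -0.04 over all genes, and for Fbln2 and Emilin2 every 4 d library lay above every untreated one, as for 8.07% of all genes. The authors' deposited table, made with another tool, gave 6 of the 10 an adjusted p below 0.05 in the lower and 1 in the higher direction at 18 h, 1 higher at 4 d against untreated and 5 higher at 4 d against 18 h.

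Summed over the 10 genes, the share of a library's counts was 0.855% to 1.006% in untreated libraries, 0.476% to 0.524% at 18 h and 0.754% to 1.185% at 4 d. The 18 h shares were below all others, and the untreated and 4 d shares overlapped. Because each library is a pool of sorted cells, fewer cells that make a transcript and less of it per cell cannot be told apart.

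Ratios of 2 genes within a library need no scaling between libraries. The 3 given here were chosen after the levels were seen, from genes that looked different, so they describe these libraries and test nothing further. Eln to Fbn1 was 1.43, 1.95, 2.49 and 1.30 in untreated libraries, 0.907, 0.472 and 0.827 at 18 h, and 1.49, 1.71, 0.816 and 1.43 at 4 d. Mfap2 to Mfap5 was 0.369, 0.318, 0.496 and 0.283, then 0.126, 0.116 and 0.135, then 0.114, 0.087, 0.132 and 0.332. Mfap4 to Mfap5 was 0.264, 0.581, 0.498 and 0.356, then 0.135, 0.148 and 0.151, then 0.259, 0.296, 0.298 and 0.499.

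For each of these 3 ratios all 18 h libraries lay below all untreated ones, with a mean log2 difference of -1.29, -1.51 and -1.49. Each gave p = 0.0571 in an exact permutation test, two-sided, which is the minimum for 3 against 4 libraries, and an adjusted p of 0.129 over the 9 comparisons made. At 4 d, Mfap4 to Mfap5 lay above all 18 h libraries (difference 1.18, exact p = 0.0571, adjusted p = 0.129), whereas Mfap2 to Mfap5 stood at 0.20 against 18 h (exact p = 0.971) and -1.31 against untreated (exact p = 0.0857, adjusted p = 0.154). For Mfap2 to Mfap5 the 4 d mean rests on replicate 4, the shallowest library: without it the difference from 18 h was -0.20 (exact p = 0.4).

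**Figure D3:**
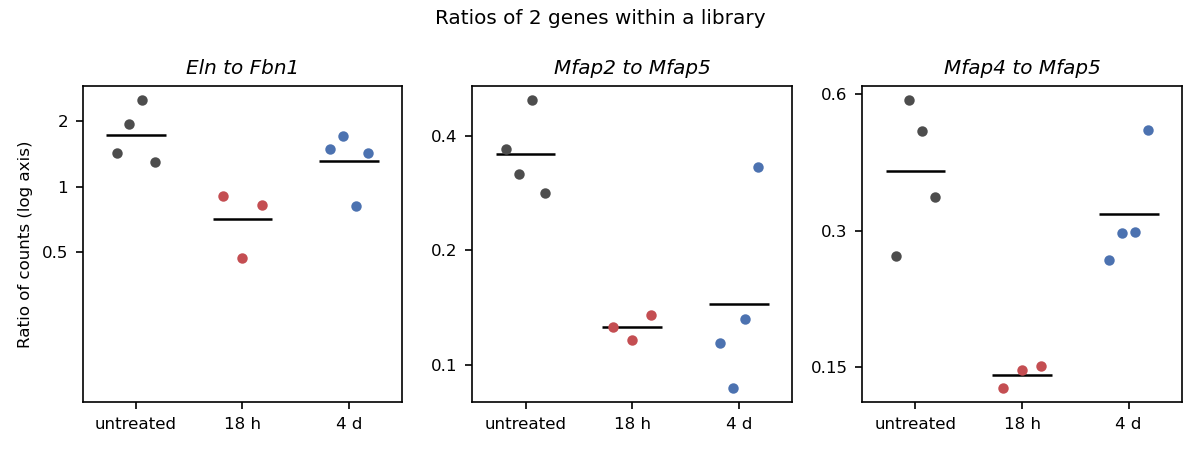
Ratios of counts of 2 genes within a library (log axes) in the untreated, 18 h and 4 d groups; each point is a library and each line the geometric mean. At 4 d the ratio of Mfap2 to Mfap5 is near the 18 h values in 3 libraries and at 0.332 in the remaining one.

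How the genes varied together was described over the 11 libraries, which share the group differences, and again with group means removed. Pearson's r of log2 CPM was 0.906 for Eln and Fbln2 (0.696 within groups), 0.895 for Eln and Mfap4 (0.189) and 0.921 for Fbn1 and Emilin2 (0.871). Eln and Mfap2 had r = 0.551 over all libraries and -0.763 within groups, and Mfap2 and Emilin1 had -0.801 and -0.265. Of 7321 genes outside the list that met a mean count of 20, those most like Eln were Ccdc80 (r = 0.949), Ackr4 (0.946), Mmp11 (0.929), Cilp (0.926) and Rdx (0.924), and those most like Fbn1 were Bgn (0.940), Adam12 (0.894), Lamc1 (0.891) and Coro2b (0.889). No test was made of these values, which were picked as the highest.

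Other genes of elastic fibre assembly were taken from lists of known function, chosen, like the 10 genes, with earlier results of these data known. As the background of their counts, 4.69% of all genes were lower and 7.85% higher at 18 h. At 4 d the shares were 0.824% and 2.48% against untreated, and 3.81% and 1.7% against 18 h. Outside the 10 genes, 8 of 15 further elastin and microfibril core genes had enough counts, and at 18 h 2 fell, the fibrillin gene Fbn2 at -1.65 ± 0.49 (adjusted p = 0.0405) and the hemicentin gene Hmcn1, which had 0, 2 and 2 counts at 18 h against 7, 19, 11 and 27 in untreated libraries (adjusted p = 0.0288). Both calls were lost when single libraries were left out, Hmcn1 without untreated replicate 2 or 4 or 18 h replicate 1 or 3 (adjusted p 0.0664 to 0.112) and Fbn2 without untreated replicates 2, 3 or 4, 18 h replicates 2 or 3 or 4 d replicate 4 (0.0521 to 0.124). At 4 d, 0 of the 8 differed from untreated and 0 from 18 h past the threshold. The list's median was -0.40 at 18 h and 0.53 between the times.

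Lox, the lysyl oxidase that begins the crosslinking of tropoelastin, was 1 of 5 crosslinking genes tested and the 1 that changed. It was at 127, 211, 112 and 150 CPM in untreated libraries, 181, 188 and 233 CPM at 18 h, and 334, 497.5, 520.1 and 399.9 CPM at 4 d. All 4 d libraries were above all others, and the 18 h group overlapped the untreated one. Lox was higher at 4 d than untreated by 1.55 ± 0.24, 2.92-fold (adjusted p = 0.00658), and than at 18 h by 1.12 ± 0.26 (adjusted p = 0.0218), and at 18 h stood at 0.42 (adjusted p = 0.299). The call between the times was lost without 18 h replicate 1 or 4 d replicates 2 or 3 (0.0522 to 0.11).

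Of the proteins that load latent TGF-beta onto microfibrils, Ltbp3 fell at 18 h and the other three of 4 tested did not pass. Its levels were 281, 279, 302.5 and 293 CPM untreated, 157, 158 and 158 CPM at 18 h, and 261, 298, 262 and 227 CPM at 4 d, with the 18 h group below all others. The difference at 18 h was -0.87 ± 0.19 (adjusted p = 0.00905; not called with the marker covariate, at -0.859 and 0.109), and Ltbp3 rose between the times by 0.73 ± 0.19 (adjusted p = 0.0359). That rise was not called without untreated replicates 2 or 4, 18 h replicates 1 or 3, or 4 d replicates 1, 2 or 3 (0.0538 to 0.133).

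The ADAMTS-type proteins that bind fibrillin went both ways, with 1 of 10 tested higher and 2 lower at 18 h. Adamtsl2 averaged 7.01 ± 2.06 CPM in 4 untreated libraries and 45.2 ± 22.2 CPM in 3 at 18 h (SD). It rose by 2.66 ± 0.44 on the log2 scale (adjusted p = 0.00183) and fell by 2.34 ± 0.43 from 18 h to 4 d (adjusted p = 0.00552). Thsd4, which in mice promotes fibrillin-1 assembly, was at 31.6 ± 9.41 CPM untreated (SD, n = 4) and fell at 18 h, to 15.4 ± 3.52 CPM (SD, n = 3, adjusted p = 0.0317), and was still lower at 4 d, at 12.7 ± 2.11 CPM (SD, n = 4), a difference from untreated of -1.32 ± 0.27 (adjusted p = 0.0171). It was not called at 18 h without untreated replicate 1, 2 or 3 or 18 h replicate 1 or 3 (0.0556 to 0.112) or with the marker covariate, at -0.658 (0.406), and at 4 d without 4 d replicates 1 or 2 (0.0503 to 0.053). Adamts17 had 0 counts in each 18 h library against 25, 9, 12 and 12 in untreated libraries (adjusted p = 0.0253, lost without 18 h replicates 1 or 3 at 0.0659 to 0.0792, and with the marker covariate at 0.116).

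Among 9 proteases able to cut elastin that were tested, 2 rose at 18 h. Mmp3 went from 18.9 ± 5.68 CPM (SD, n = 4) to 255, 31.6 and 131 CPM, a difference of 2.90 ± 0.54 (adjusted p = 0.00375), and fell by 3.66 on the log2 scale between the times (adjusted p = 0.00172). Several macrophage, endothelial and pericyte markers were also called higher at 18 h, and with their mean as a covariate Mmp3 stood at 0.084 (adjusted p = 0.939) and -0.921 (adjusted p = 0.265), neither called. Ctss, a cathepsin that macrophages also make, rose by 3.34 ± 0.89 (adjusted p = 0.0255), not called without untreated replicate 3 or 4 or 18 h replicate 1 or 3 (0.063 to 0.0852), and with that covariate its direction turned, to -1.016 (adjusted p = 0.56). The covariate, a mean log2 CPM of 32 markers, was 2.2 to 3.18 in untreated libraries and 3.37 to 4.92 at 18 h. It thus shares much of the group difference, and the source of these rises was not tested. Between the times Mmp2, the gelatinase of fibroblasts, rose by 1.95 ± 0.34 (adjusted p = 0.00389) with 396 ± 53.5 CPM at 18 h and 1528 ± 764 CPM at 4 d (SD over 3 and 4 libraries), and Ctsk by 1.63 ± 0.39 (adjusted p = 0.0257), the latter not without 18 h replicates 1 or 2 or 4 d replicates 3 or 4 (0.0584 to 0.078).

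Of 7 inhibitors tested, 2 rose at 18 h and remained above untreated at 4 d. Timp1, an inhibitor of metalloproteases, went from 156, 91.8, 58.1 and 95.4 CPM to 1648, 1783 and 1284 CPM at 18 h and to 491, 412.5, 878.5 and 455 CPM at 4 d. Its 3 groups did not overlap. The differences from untreated were 3.97 ± 0.35 (adjusted p = 1.24e-05) and 2.48 ± 0.32 (adjusted p = 0.00244). Serpina3n, an inhibitor of serine proteases, rose by 5.33 ± 0.40 at 18 h (adjusted p = 3.28e-06) and stood 1.65 ± 0.34 above untreated at 4 d (adjusted p = 0.018), not called without untreated replicate 3 or 4 or 4 d replicate 3 (0.0585 to 0.0701).

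**Figure D4:**
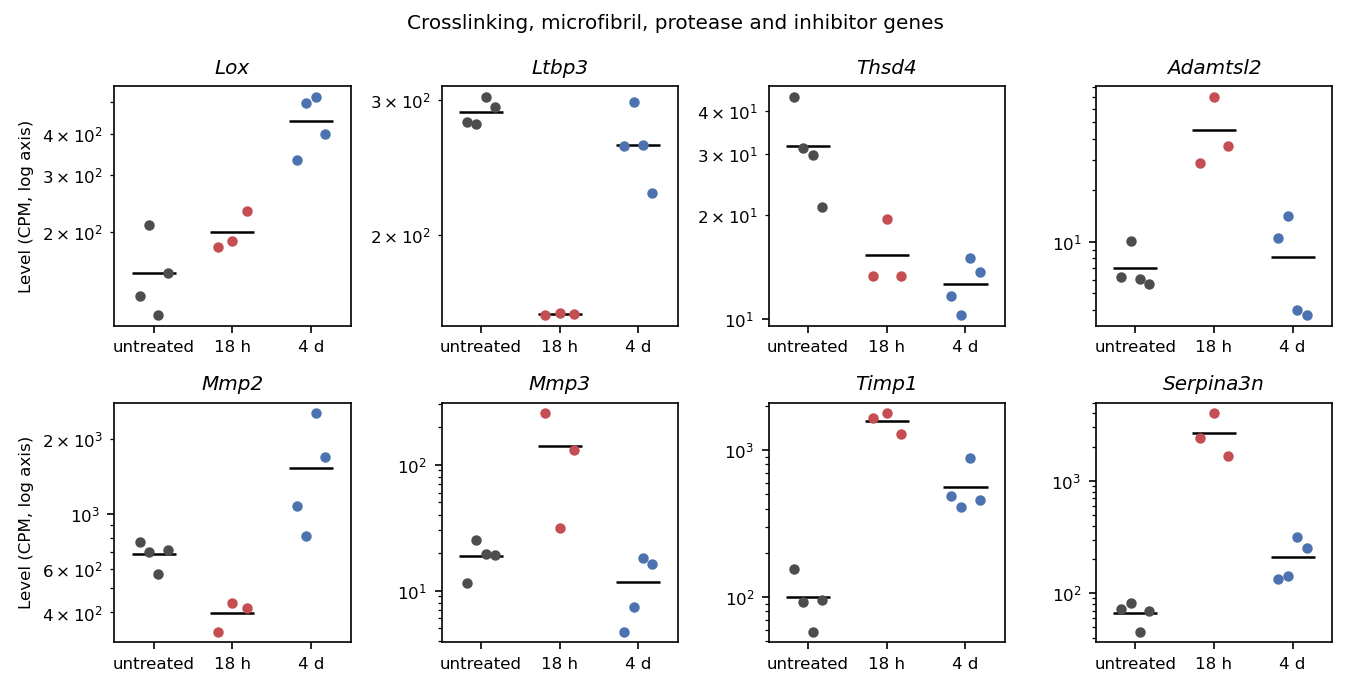
Levels in CPM (log axes) of 8 genes outside the 10 that act on elastic fibres: crosslinking (Lox), microfibril partners (Ltbp3, Thsd4, Adamtsl2), proteases (Mmp2, Mmp3) and inhibitors (Timp1, Serpina3n). Each point is a library and each line a group mean; Lox is highest at 4 d, Ltbp3 lowest at 18 h, and Timp1 and Serpina3n highest at 18 h.

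Of the remaining lists, 0 of 8 elastic fibre receptors changed in any comparison. Among 15 tested TGF-beta ligands, receptors and targets, 3 fell and 2 rose at 18 h. Tgfbi, a matrix gene induced by TGF-beta, fell by a log2 difference of 1.67 ± 0.44 (adjusted p = 0.0238), which was not called without untreated replicate 3 or 18 h replicate 2 or 3 (0.0538 to 0.065). Of 7 fibrillar collagens 2 fell at 18 h, Col1a2 at -1.14 ± 0.32 (adjusted p = 0.0326) and Col5a2 at -1.48 ± 0.45 (adjusted p = 0.0439). Col1a2 lost its call without untreated replicate 2 or 4 or 18 h replicate 1 or 2 (0.059 to 0.085), and the Col5a2 call held without only 2 of the 11 libraries, untreated replicate 1 and 4 d replicate 3 (0.0538 to 0.132 otherwise). Of 6 elastin-binding proteoglycans 0 changed at 18 h and 2 at 4 d, Fmod at -1.71 ± 0.41 (adjusted p = 0.0368) and Vcan at 1.06 ± 0.26 (adjusted p = 0.0411), calls that were lost in 7 and 8 of the 11 fits without a library (0.0543 to 0.103 and 0.0544 to 0.148).

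Of 16 tested genes known to act on elastin transcription in various tissues, 2 fell and 1 rose at 18 h. Nr3c1, the glucocorticoid receptor gene, averaged 94.8 ± 13.4 CPM in 4 untreated libraries and 30.4 ± 9.57 CPM in 3 at 18 h (SD), and fell by a log2 difference of 1.61 ± 0.27 (adjusted p = 0.00195). Igf1, a growth factor that raises elastin synthesis in cultured aortic tissue, was at -1.68 ± 0.43 at 18 h (adjusted p = 0.0212) and rose between the times by 2.09 ± 0.43 (adjusted p = 0.0109). The first of these was not called without untreated replicate 2 or 3 or 18 h replicate 1 or 2 (0.055 to 0.0831) and its second without 18 h replicate 1 (0.0673). Il1b, a cytokine reported to repress elastin in some, not all, cultured fibroblasts, rose by 5.50 ± 1.13 at 18 h (adjusted p = 0.00644), from 0 to 7 counts per untreated library to 181, 13 and 82 counts. With the marker covariate it stood at 1.381 and was not called (adjusted p = 0.551). Of 13 adventitial fibroblast genes, which mark the fibroblasts of vessel sheaths and capsules, 2 rose and 1 fell at 18 h, where 7.85% and 4.69% of all genes did, and 3 rose at 4 d, where 2.48% did, among them the hyaluronan synthase gene Has1 by 1.92 (adjusted p = 0.012).

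Library depth and the levels of cell type markers moved with some of these results. Totals were 916281 to 3357113 counts, the lowest in 18 h replicate 2 and 4 d replicate 4, where a count of 0 allows up to 3.27 CPM by counting error alone, and the 10 genes had 54 to 10610 counts per library. Each of the 6 calls among the 10 genes held without these 2 libraries and without each library in turn. The fibroblast sort markers were present, with Pdgfra at 49.96 to 154 CPM and Cd34 at 469 to 1303 CPM, while Epcam, which the labels list as positive, was at 0.379 to 10.4 CPM. The summed 9 fibroblast markers were at 16447 to 25266 CPM untreated, 5863 to 14739 CPM at 18 h, all below, and 18405 to 29739 CPM at 4 d. Gene by gene, 1 of the 9 was called higher and 1 lower at 18 h, where 7.85% and 4.69% of all genes were. Genes with high counts weigh most in the sum: untreated means were 6600.5 CPM for Col3a1, 4521 CPM for Col1a2 and 106 CPM for Pdgfra. Of the 9 markers, Col3a1 was at 380.3 CPM in 18 h replicate 2, against 2846 and 4956 CPM in the other 18 h libraries and at least 5265 CPM elsewhere.

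Markers of other cell types summed to 206 to 324 CPM untreated, 214 to 707 CPM at 18 h and 109 to 255.5 CPM at 4 d for 10 endothelial genes. For 11 pericyte and smooth muscle genes the sums were 235 to 473, 414 to 1138 and 167 to 225.5 CPM, and for 11 macrophage and monocyte genes 73.5 to 195, 153 to 408 and 79.3 to 159 CPM. The untreated and 18 h ranges of these sums overlapped for each of the 3 lists. Gene by gene, however, 4 of 7 tested endothelial, 4 of 10 pericyte and 5 of 10 macrophage markers were called higher at 18 h, where 7.85% of all genes were, and 0, 2 and 0 lower. As examples, Pecam1 was at 0 to 3.79 CPM untreated and 14.6 to 121.5 CPM at 18 h, and Tagln at 20.2 to 45.0 and 104 to 407 CPM. The 7 thymic epithelial, 6 thymocyte and 6 mesothelial markers in the table had overlapping sums in all 3 groups, at 71.0 to 716.5, 3.19 to 47.0 and 539 to 4597 CPM over all libraries, and Rag1 was at 0 in every 18 h library.

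With the mean log2 CPM of the endothelial, pericyte and macrophage markers as a covariate, a fit added after seeing the data, the 3 genes lower at 18 h and the 3 higher between the times were the same. Eln stood at -1.382 at 18 h (adjusted p = 0.0448), Mfap2 at -2.196 (adjusted p = 0.0224) and Mfap4 at -2.487 (adjusted p = 0.0037), and between the times Eln at 1.731 (adjusted p = 0.0259), Mfap4 at 2.698 (adjusted p = 0.0034) and Fbln2 at 1.471 (adjusted p = 0.049). The covariate was highest in the 18 h group, so it shares much of the group difference. Of the 47 calls in the pathway lists that the naming rule took, 32 passed with it. These were 11 of the 22 calls at 18 h, all 13 at 4 d against untreated and 8 of the 12 at 4 d against 18 h. Fewer of the 47 calls, 18, held when each library was left out in turn. By comparison, in the same order, 10, 4 and 4 calls held.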

How the data were processed

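The groups of the 11 libraries were taken from the labels. The label text puts the later group at 4 d in its description, treatment and time but at 3 d in its title, and 4 d is used. The submitters' processing notes name bcl2fastq, cutadapt, STAR 2.5.2b, HTSeq, DESeq2 and mm10. The sources used here do not give the strand setting, the annotation, or whether molecular identifiers were collapsed.

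Per the file headers, the table deposited by the authors holds whole-number counts for each gene, and every test used these counts. The authors' normalized signal is the counts multiplied by a constant for each library, and it was not tested. The deposited table also held the authors' log2 fold changes and their adjusted p-values, and the number of members below 0.05 is quoted from it.

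The filterByExpr function (edgeR 4.0.16, R 4.3.3; minimum count 10) kept 10067 of 12430 genes. All 11 libraries, scaled by TMM, entered 1 robust quasi-likelihood fit with group as the only term, and p-values were adjusted over all genes tested. The SE is the log2 difference divided by the square root of F. Alternatives used DESeq2 1.42.0, limma-voom (limma 3.58.1), other scalings and filters, and libraries left out. Ratios were compared with exact permutation tests in scipy 1.17.1. The fit was tested on simulated data.

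All 10 members are named, and from each pathway list up to 4 genes per comparison with the smallest adjusted p among those that passed, with genes whose calls are less stable in part given as counts. The members and lists were chosen with earlier results of these data known. Gene spans are from GENCODE M21 on GRCm38, and promoters from RefSeq. Protein features, planned, were not computed. Some genes that the naming rule covers are not reported here, although they stayed in the fits and counts.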

Additional observations from a re-analysis of the deposited data

Results flagged for a closer look

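For 3 of the 10 genes the difference from untreated was not the same at 18 h and 4 d. The test was the contrast of 4 d against 18 h in edgeR's quasi-likelihood fit, already given above. It equals the 4 d difference minus the 18 h difference, because both are measured against the same 4 untreated libraries. Of all genes tested, 1.7% were called higher and 3.81% lower in it. The contrast was 1.62 on the log2 scale for Eln (adjusted p = 0.0012), 2.01 for Mfap4 (adjusted p = 0.00156) and 1.39 for Fbln2 (adjusted p = 0.00348). For each of these genes, all 4 libraries of the 4 d group lay above all 3 of the 18 h group, as for 9.52% of all genes. A search for single libraries far from the other three of their group, over the 10 genes and the 2 groups of 4 libraries, found 0 in 20 groups, where chance gives about 1 in 20.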

How the results depend on the processing

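The 6 calls among the 10 genes passed in all 21 other settings (the marker covariate, added later, is a further one), with the highest adjusted p at 0.0263 (Fbln2, 4 d against 18 h). Of 660 results, the 30 differences of the 10 genes under 22 settings, 633 kept their side of the threshold, 27 newly passed and 0 lost a call or reversed one. The count of genes lower at 18 h went from 3 to 6 with total counts only, a scaling that moves the median of all genes by -0.232, and to 6 with DESeq2's Wald test. The count higher at 18 h went from 0 to 1, Emilin1, with DESeq2 size factors, DESeq2's Wald test and limma-voom, and ran from 0 to 1 when replicates were left out. At 4 d against untreated the lower count became 1, Mfap2, without the 2 shallowest libraries, and the higher count 1, Fbln2, with DESeq2's Wald test and without the 2 shallowest libraries, and 0 to 1 with replicates left out. The count higher at 4 d than at 18 h was 5 with DESeq2's Wald test and 3 to 5 with replicates left out. The cause was not tested.

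Replicate numbers were not taken as pairs: same-numbered libraries correlated in their deviations from the group means at -0.344 to 0.193 over 10 pairs by title numbers and at -0.138 to 0.36 over 8 by description numbers. So few correlations cannot exclude that same-numbered libraries were handled together. With either as a replicate block the members called were 3 lower at 18 h and 3 higher between the times, as without it. Over all genes the block gave 205 (title) and 112 (description) lower at 18 h against 472, 443 and 306 higher against 790, 14 and 18 lower at 4 d against 83, and 46 and 73 higher against 250. Between the times it gave 231 and 241 lower against 384, and 74 higher against 171 by title numbers.

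Other settings that moved a count of all genes by over 1.5 times were total counts only (897 lower at 18 h, 162 lower at 4 d), DESeq2's Wald test (209 lower and 481 higher at 4 d, 343 higher between the times), fits of only the 2 groups (144 and 394 at 4 d, 253 lower and 102 higher between the times), the shallowest libraries left out (111 higher between the times) and the marker covariate (252 lower and 365 higher at 18 h, 145 lower at 4 d, 286 higher between the times). Leaving out 1 replicate took the counts of all genes, where these moved by over 1.5 times, down to 171 lower (without 18 h replicate 1) and 463 higher (untreated replicate 3) at 18 h, to between 27 and 177 lower and between 86 and 440 higher at 4 d, and to 196 lower and between 45 and 346 higher between the times, so the shares of all genes called at 4 d move by as much. The marker covariate, added later, reversed Ctss at 18 h to -1.016 (adjusted p = 0.56), and the added ratio of Mfap2 to Mfap5 between the times ran from -0.200 to 0.441 with replicates left out. With 3 or 4 libraries a group and a common biological coefficient of variation of 0.301, smaller differences than those called may have been missed.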
